A study of Mus musculus with 4 samples.

Results

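Pecam1, Cdh5, Cldn5, Kdr, Flt1, Tek, Tie1, Vwf and Emcn are transcripts used to mark the endothelial cells that line blood vessels. These 9 genes are described here in inguinal white adipose tissue of obese mice, out of 37315 gene identifiers in the deposited count tables. They were selected on the m6A peak counts of these same libraries: they are named endothelial genes whose numbers of entacapone and vehicle peaks were known when they were chosen. Peak numbers of these genes are therefore a description of what chose them. Their input read counts are not part of that stated choice, but earlier results of these data were known when it was made. A peak was counted in a gene when the midpoint of the peak lay within the gene span in RefSeq on GRCm38.p6, the assembly also called mm10.

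The tissue came from male C57BL/6 mice of 23 weeks with obesity induced by a high-fat diet, given either entacapone or vehicle. There are 4 libraries, 1 of each kind: entacapone m6A immunoprecipitate, entacapone input, vehicle m6A immunoprecipitate and vehicle input. Dose, route and duration of treatment are not in the labels, nor is the number of animals behind a library. With 1 library per group there is no replicate and no test, so each difference below lies between libraries, and intervals cover counting error only.

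N6-methyladenosine (m6A) is a mark on mRNA that the METTL3-METTL14 complex installs, often near stop codons, and that FTO and ALKBH5 remove. Entacapone is a catechol-O-methyltransferase inhibitor used in Parkinson's disease that has also been described as an inhibitor of FTO. Fat is densely supplied with capillaries, whose endothelial cells hold together through junction proteins, respond to vascular endothelial growth factor (VEGF) and angiopoietins through receptor kinases, and hand fatty acids on to adipocytes.

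The question was whether peaks found with entacapone alone went with more transcript in the input. In these genes more peaks stood beside a lower scaled input level in most cases. Because the genes were picked on their peak counts, the peak side of this pairing restates the choice. Together the 9 genes carried 28 peaks in the entacapone list, against 7 in the vehicle list, while their summed input level was 900 CPM (counts per 1000000 of the library total) with entacapone and 1081 CPM with vehicle. The ratio of the summed input, entacapone over vehicle, was 0.833, with an exact 95% counting interval of 0.820 to 0.847. In bulk tissue, fewer endothelial cells and less RNA per endothelial cell cannot be told apart.

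The depth of the libraries differed. The entacapone input held 33164576 counts and the vehicle input 24548212, a ratio of 1.35, and the entacapone peak list held 31856 peaks against 22860, a ratio of 1.39. Depth of the immunoprecipitates is not known from the files. Unscaled, 8 of the 9 genes had more input reads with entacapone, as did 93.2% of the 13820 identifiers with at least 1 CPM on average. The summed raw reads of the 9 genes were 29860 with entacapone and 26526 with vehicle, 1.13 times as many and less than the 1.35-fold difference between the whole libraries. The part that read depth had in the peak lists was not tested.

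After scaling, 7 of the 9 genes were lower and 2 were higher in the entacapone input, and a lower CPM was found for 38.6% of all tested identifiers. The 95% interval of the ratio lay wholly below 1 for 6 genes, against a background of 20.0% of identifiers, and wholly above 1 for 1 gene, against 37.3%. Counting intervals narrow with more reads, and the background includes identifiers with fewer reads than these genes. Shares of intervals, here and below, are therefore not matched for level. None of the 9 passed the call rule of an interval wholly beyond 1.5-fold in either direction, which 5.60% of identifiers passed upward and 2.52% downward. The median log2 ratio of the 9 genes was -0.24, and they ranged from -0.47 to 0.14. Over all tested identifiers the median was 0.08, with quartiles of -0.11 and 0.29, and 8 of the 9 genes lay below that median. Among the 6158 identifiers whose mean level fell in the range of these genes, 24.6 to 238 CPM, the median was 0.04. Of those identifiers, 42.9% had a log2 ratio below 0.

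**Figure D1:**
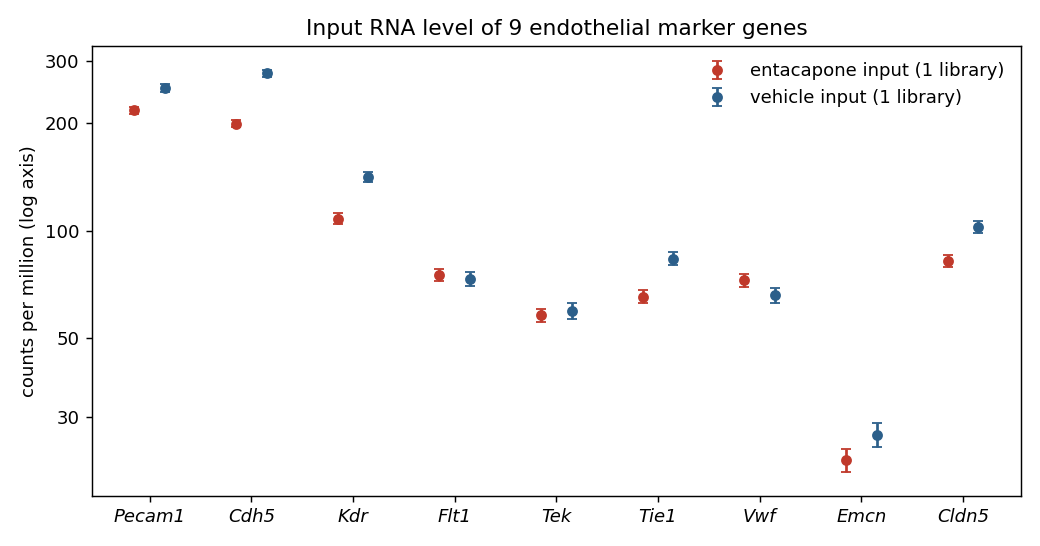
Input level in CPM (log axis) of the 9 genes in the entacapone library and in the vehicle library, with exact Poisson 95% intervals. Cdh5 stands lowest relative to vehicle, at 200 CPM with entacapone and 277 CPM with vehicle, whereas Flt1 and Tek have overlapping intervals.

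The junction genes were all lower in the entacapone input and had peaks in the entacapone list alone. Pecam1 (ENSMUSG00000020717), which encodes the platelet endothelial adhesion molecule CD31, had 7215 reads with entacapone and 6181 with vehicle. These correspond to 218 CPM (Poisson interval 213 to 223) with entacapone and 252 CPM (246 to 258) with vehicle, and the intervals do not meet. The ratio was 0.864 (0.835 to 0.894).

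Pecam1 nevertheless had 4 entacapone peaks and 0 vehicle peaks. All 4 lay between 1.19% and 22.3% of the way along its span on chromosome 11, counted from the lower-coordinate end. The first, at chr11:106654910-106654968, had a fold enrichment of 1.579, below 1.585, the smallest fold anywhere in the vehicle list. The fold is the authors' own unlabelled value for each peak, read here as a linear fold, and describes peaks within a list. The remaining Pecam1 peaks had folds of 2.89, 4.59 and 4.59, so not all of its peaks were weak ones.

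Cdh5 (ENSMUSG00000031871) encodes VE-cadherin, the adhesive protein of endothelial adherens junctions. It had 6619 reads with entacapone and 6791 with vehicle, and was the single gene of the 9 with fewer raw reads in the deeper library. The level was 200 CPM (195 to 204) with entacapone and 277 CPM (270 to 283) with vehicle, a ratio of 0.721 (0.697 to 0.746) and the lowest of the 9. Only 5.97% of all tested identifiers had a lower log2 ratio.

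Cdh5 also had the largest difference in peaks, with 5 in the entacapone list and 0 in the vehicle list. A run of 4 of them, covering 913 bases, lay within 2 kb of the higher-coordinate end of the gene on chromosome 8. Their folds were 1.53, 1.64, 1.56 and 1.67, and at most 2.77% of the entacapone list had a lower fold than any of them. The widest was 356 bases, at chr8:104142552-104142908. The fifth peak, at chr8:104101717-104101767 with a fold of 2.08, lay 0.30% into the span at the opposite end, where the long noncoding gene Gm29682 overlaps Cdh5, so it cannot be assigned to Cdh5 alone. The nearest vehicle peak to any of the 5 was 82893 bases away.

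Cldn5 (ENSMUSG00000041378) encodes claudin-5, a tight junction protein. It had 2726 reads with entacapone and 2517 with vehicle, or 82.2 CPM (79.1 to 85.3) and 103 CPM (98.6 to 107), a ratio of 0.802 (0.759 to 0.847). Its span on chromosome 16 is only 1416 bases. The 2 entacapone peaks covered 37.7% of that span, at chr16:18777583-18777818 and chr16:18777918-18778217, in the part towards the 3′ end. Their folds were 1.73 and 1.69, and the vehicle list had 0 peaks there.

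The VEGF receptor genes differed from each other. Kdr (ENSMUSG00000062960) encodes VEGFR2, the main signalling receptor for VEGF-A. It had 3584 reads with entacapone and 3469 with vehicle, or 108 CPM (105 to 112) and 141 CPM (137 to 146), a ratio of 0.765 (0.730 to 0.802). Kdr had 2 entacapone peaks and 1 vehicle peak. The vehicle peak, chr5:75933951-75934102 with a fold of 1.92, lay inside the first entacapone peak, chr5:75933907-75934322 with a fold of 2.26. The entacapone-only peak, chr5:75934462-75934565 with a fold of 1.83, was 360 bases from the vehicle peak. Kdr thus had its mark in one place in both lists, 1.20 to 1.69 kb from the 3′ end of the span. The gene Gm32727 overlaps the Kdr span, and whether these peaks belong to Kdr alone was not tested.

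Flt1 (ENSMUSG00000029648) encodes VEGFR1, which binds VEGF-A and has a soluble form that traps it. It had 2490 reads with entacapone and 1797 with vehicle, or 75.1 CPM (72.2 to 78.1) and 73.2 CPM (69.9 to 76.7). The intervals overlap, the ratio of 1.03 (0.965 to 1.09) includes no change, and its sign turned with each of the other scalings tried, to log2 values of -0.06 with TMM, -0.07 with DESeq2 size factors and -0.03 with the upper quartile, against 0.04 with the library total.

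Flt1 had 4 entacapone peaks and 3 vehicle peaks, of which 2 in each list were shared. Its span is overlapped by the gene Gm35383, and whether the peaks belong to Flt1 alone was not tested. One shared site lay inside the gene, at chr5:147639152-147639455 (fold 2.26) with entacapone and chr5:147639282-147639448 (fold 2.64) with vehicle. The other lay at the start of the gene, at chr5:147725900-147725977 (fold 2.08) with entacapone and chr5:147725909-147725979 (fold 4.52) with vehicle. Entacapone-only peaks were at chr5:147586132-147586181 (fold 5.12) and chr5:147635703-147635758 (fold 3.11). The vehicle-only peak, chr5:147726264-147726313 (fold 3.31), lay 253 to 302 bases upstream of the RefSeq start site used here. Flt1 was thus among the 3 genes of the 9 with a vehicle-only peak.

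The angiopoietin receptor genes also differed. Tek (ENSMUSG00000006386) encodes Tie2, the receptor for angiopoietins, which keeps vessels quiescent. It had 1915 reads with entacapone and 1456 with vehicle, or 57.7 CPM (55.2 to 60.4) and 59.3 CPM (56.3 to 62.4), with overlapping intervals and a ratio of 0.974 (0.909 to 1.04). With the other scalings the interval of Tek lay wholly below 1, at 0.852 to 0.978 with TMM, 0.847 to 0.972 with DESeq2 size factors and 0.869 to 0.997 with the upper quartile. Tek had 3 entacapone peaks and 0 vehicle peaks. A pair lay at its start, chr4:94739310-94739383 (fold 4.14) and chr4:94739489-94739627 (fold 2.82). The third, chr4:94866930-94866998, had a fold of 6.10, the largest of any entacapone-only peak in the 9 genes, and lay 8.01 kb from the 3′ end.

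Tie1 (ENSMUSG00000033191) encodes an orphan receptor that pairs with Tie2. It had 2159 reads with entacapone and 2047 with vehicle, or 65.1 CPM (62.4 to 67.9) and 83.4 CPM (79.8 to 87.1), a ratio of 0.781 (0.735 to 0.830). Tie1 had 1 peak in each list, at opposite ends of the gene. The entacapone peak, chr4:118489709-118489800 (fold 2.99), was 0.0945 kb from the 5′ end of the span by its midpoint, and the vehicle peak, chr4:118471225-118471278 (fold 1.99), was 0.0605 kb from the 3′ end. It was the single gene of the 9 with as many vehicle as entacapone peaks.

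Vwf (ENSMUSG00000001930) encodes von Willebrand factor, which tethers platelets to injured vessel walls and is made by endothelial cells and megakaryocytes. It had 2402 reads with entacapone and 1614 with vehicle, or 72.4 CPM (69.6 to 75.4) and 65.7 CPM (62.6 to 69.0). The ratio of 1.10 (1.03 to 1.17) was the highest of the 9 and the only one with an interval above 1, and that interval included no change with TMM, DESeq2 or upper-quartile scaling. Vwf had the most entacapone peaks of the 9, with 6, and it had 2 vehicle peaks.

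The shared Vwf site, chr6:125591928-125592036 with entacapone (fold 6.97) and chr6:125591953-125592145 with vehicle (fold 5.34), had the largest fold of the 9 genes in both lists. A group of 3 entacapone-only peaks lay within 889 bases of each other in the middle of the gene, with folds of 2.36, 2.63 and 2.84. Another lay at the lower-coordinate end, chr6:125552987-125553100, with a fold of 5.67. Near the higher-coordinate end an entacapone-only peak (chr6:125682776-125682857, fold 1.89) and a vehicle-only peak (chr6:125684069-125684147, fold 3.48) lay 1212 bases apart.

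Emcn (ENSMUSG00000054690) encodes endomucin, a sialomucin of capillary and venous endothelium. It was the least counted of the 9, with 750 reads with entacapone and 654 with vehicle, or 22.6 CPM (21.0 to 24.3) and 26.6 CPM (24.6 to 28.8), a ratio of 0.849 (0.763 to 0.944). Its 1 entacapone peak, chr3:137341144-137341249 (fold 2.54), lay at the 5′ end of a span of 90008 bases, and the vehicle list had 0 peaks in the gene. The span of Emcn is overlapped by the gene Gm38650, and whether the peak belongs to Emcn alone was not tested.

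Flt1, Tek, Tie1 and Emcn have an entacapone peak that meets the window, or in Emcn lies 17 bases beyond it, which RefSeq on GRCm38.p6 gives around the start site. The last 30 bases of those windows are printed 5′ to 3′ on the gene's own strand to show what lies there, with bases under the entacapone peak in capitals, taking listed starts and ends as inclusive.
Flt1, chr5:147725962-147725991, minus strand: cggagcgcggtggcGGACACTCCCGGGAGG
Tek, chr4:94739309-94739338, plus strand: cCGGAGCAGGAGCAGAAGATAAGCCTTGGA
Tie1, chr4:118489800-118489829, minus strand: accatcatttcctcttcctccccagcaccG
Emcn, chr3:137341098-137341127, plus strand: ccccaaaataagtaggaatgggcagcgtct
The peaks began 34, 21, 49 and 66 bases after the start site in Flt1, Tek, Tie1 and Emcn, in that order. A common form of the m6A consensus, GGACA or its variants ending in C or T in place of the last A, was looked for in these 30 bases, and GGACA was found in Flt1, under the peak shared by both lists. Of 32851 such windows, 9.24% hold one of these words on the gene's strand and 17.2% on either strand. Most of each peak lies beyond these windows, so no match in Tek, Tie1 and Emcn says only that these letters are not in this stretch.

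**Figure D2:**
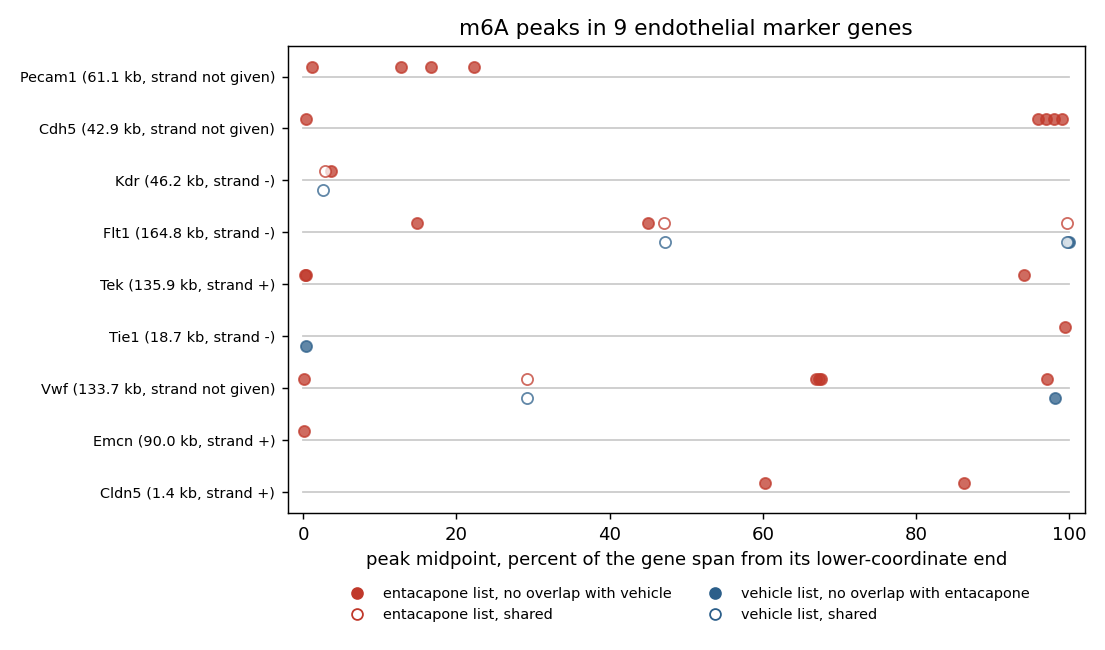
Peak midpoints along each gene, as percent of the span from its lower-coordinate end, with entacapone peaks above each line and vehicle peaks below it. Filled points have no overlapping peak in the other list and open points are shared. The 24 filled entacapone points are spread over all 9 genes, and overlapping points hide part of the 4 at the Cdh5 end.

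Of the 28 entacapone peaks, 24 had no overlap with a vehicle peak and 4 were shared, where 44.1% of the whole entacapone list had no overlap. Of the 7 vehicle peaks, 3 had no overlap and 4 were shared, where 21.3% of the whole vehicle list had no overlap. All 9 genes had an entacapone peak and 4 had a vehicle peak, where 50.0% and 41.1% of 21887 protein-coding genes did. Those 21887 genes were not limited by input level, so these 2 shares are not matched to the 9 genes. An entacapone-only peak was present in 9 of the 9, against 66.1% of the 11464 protein-coding genes with a peak in either list, and a vehicle-only peak in 3, against 29.1%. More entacapone than vehicle peaks were found in 8 of the 9, against 55.8%. No vehicle peak was listed for 5 of the 9, against 21.5%, and 3 of them, Pecam1, Cdh5 and Tek, had at least 3 entacapone peaks as well, against 1.85%. These shares show the pattern for which the genes were picked and are no evidence for it.

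Folds of the 24 entacapone-only peaks ran from 1.53 to 6.10 with a median of 2.58, whereas all 14059 entacapone-only peaks had a median of 3.19. A fold under 2 was found for 9 of the 24 (37.5%), against 17.5% of all entacapone-only peaks, and a fold of at least 4 for 6, against 34.4% of all. The 9 peaks under fold 2 were in Cdh5, Cldn5, Kdr, Vwf and Pecam1, and 3 of them were below the smallest fold of the vehicle list. Within 2 kb of a gene end, a distance that takes in all of Cldn5, lay 14 of the 24, and the other 10 lay deeper in the gene. The nearest vehicle peak was over 10 kb away for 21 of the 24, against 44.5% of all entacapone-only peaks, and within 1 kb for 1, against 25.8%. Since 15 of the 24 lie in the 5 genes without a vehicle peak, this distance largely restates the peak counts that chose the genes. The peak closest to the edge of a span was the vehicle peak of Tie1, 0.0605 kb inside by its midpoint, and the closest peak outside any span was 14.2 kb from Flt1.

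**Figure D3:**
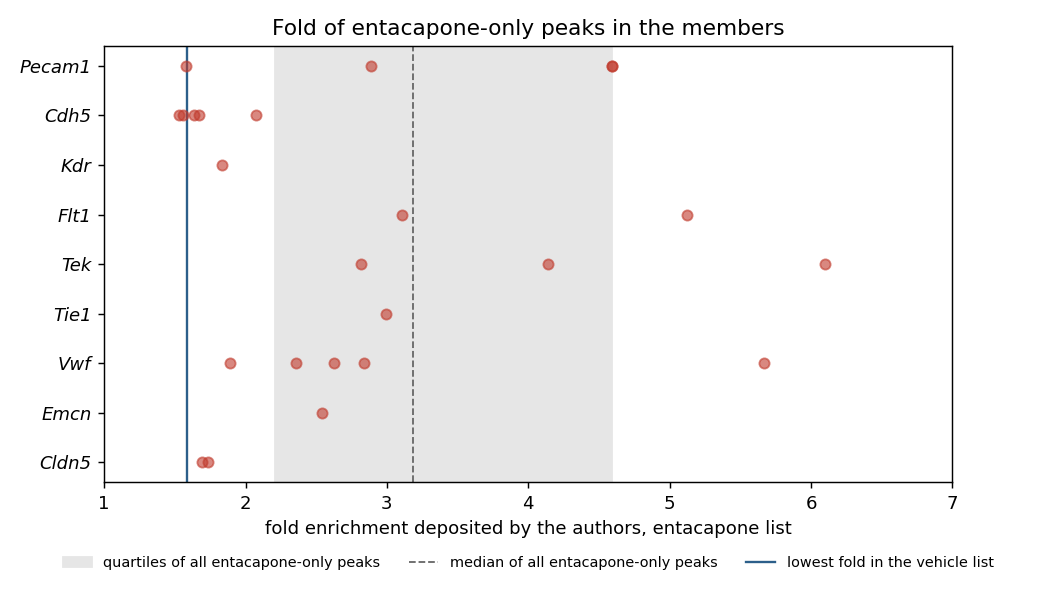
Deposited fold of each of the 24 entacapone-only peaks, by gene, with the quartiles and the median (3.19) of all entacapone-only peaks and the lowest fold of the vehicle list (1.585). Cdh5 and Cldn5 lie left of the quartile band, Tek, Vwf, Flt1 and Pecam1 reach folds above 4, and the Pecam1 point at 4.59 stands for a pair of peaks.

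Stricter peak lists held fewer peaks of these genes. Because the genes were picked on their peaks, the entacapone-only excess left in these lists restates that choice and is no evidence for it. Shares of the whole lists at the same cuts are not given. With folds of at least 2, there were 16 entacapone-only and 2 vehicle-only peaks in the 9 genes, with a peak in 8 genes for entacapone and 2 for vehicle. With folds of at least 4, there were 6 entacapone-only and 1 vehicle-only peaks. Shared peaks included, 4 genes then had an entacapone peak and 2 a vehicle peak. The entacapone list was also cut by rank to 22860 peaks, the length of the vehicle list, which left folds of 2.39 and above. This gave 13 entacapone-only and 6 vehicle-only peaks. Shared peaks included, 6 genes then had an entacapone peak and 4 a vehicle peak.

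Set against each other, peak difference and input ratio gave no common order over the 9 genes. Cdh5 had the largest peak difference, 5 more with entacapone, and the lowest input ratio. Of its entacapone peaks, 4 had folds of only 1.53 to 1.67. With folds of at least 2, Cdh5 kept its peak of fold 2.08 alone and no longer had the largest difference. Pecam1, with 0 vehicle peaks, then kept peaks of 2.89, 4.59 and 4.59. With all peaks counted, Vwf and Pecam1 each had 4 more peaks, one with the highest log2 input ratio (0.14) and the other with -0.21. Kdr, Flt1 and Emcn each had 1 more, with log2 input ratios of -0.39, 0.04 and -0.24. The 5 genes without a vehicle peak had a median log2 input ratio of -0.24 (range -0.47 to -0.04), and the 4 with one had -0.16 (range -0.39 to 0.14). The 9 genes were picked on their peaks and measured in the same 4 libraries, so correlations over them are description only. The log2 input ratio and the number of entacapone-only peaks had r = 0.27 and rho = 0.31. Entacapone reads and entacapone peaks had r = 0.48 and rho = 0.46, and vehicle reads and vehicle peaks r = -0.35 and rho = -0.17, so the most counted genes, Cdh5 and Pecam1, were not those with most vehicle peaks.

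**Figure D4:**
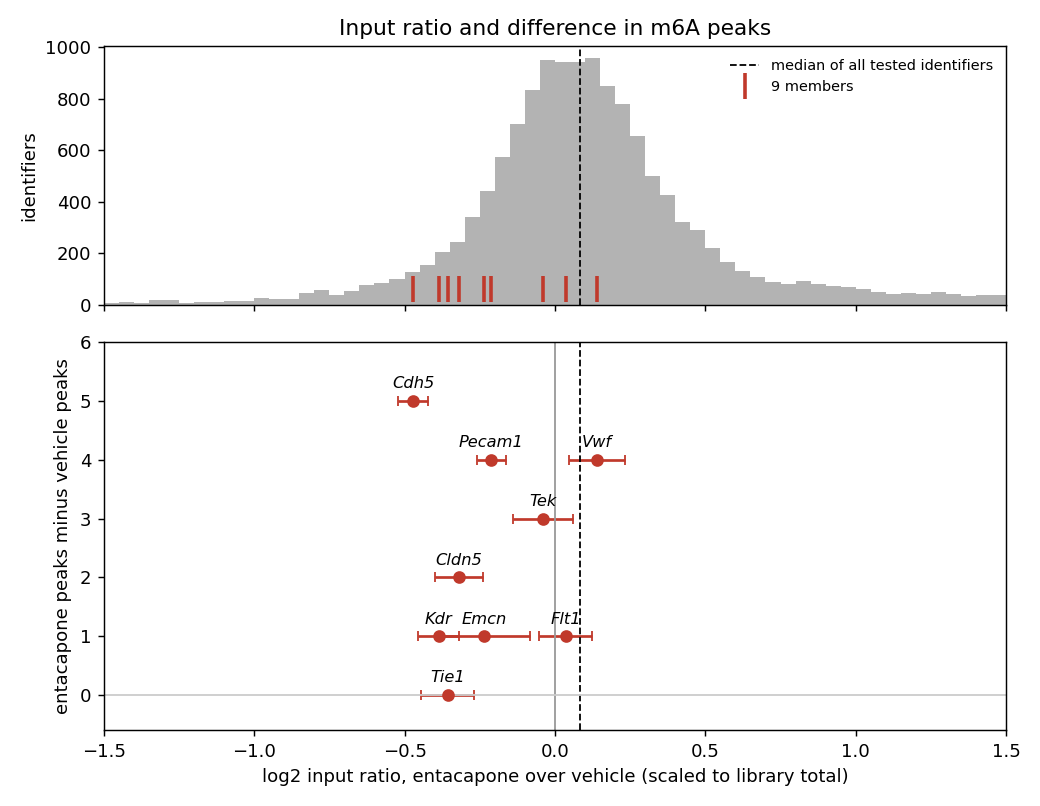
Upper panel, the log2 input ratio (entacapone over vehicle) of tested identifiers between -1.5 and 1.5, with their median of 0.08 dashed and the 9 genes as red ticks. Lower panel, entacapone minus vehicle peaks of each gene against its log2 input ratio, with 95% counting intervals. Cdh5 combines the largest peak difference, which rests mostly on peaks of fold 1.53 to 1.67, with the lowest ratio. Left of 0 lie 7 of the 9 points.

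Scaling moved the input values by a constant. The median log2 ratio of all tested identifiers was 0.08 with the library total, -0.01 with TMM, -0.02 with DESeq2 size factors and 0.02 with the upper quartile, and the corresponding median of the 9 genes was -0.24, -0.33, -0.34 and -0.30. Over all identifiers, 774 were higher and 348 lower beyond 1.5-fold with the library total, so that 69.0% of calls were higher, against 646 and 459 (58.5%) with DESeq2 size factors. Intervals wholly below 1 were found for 7 of the 9 genes with each of these other scalings, where 29.8%, 30.9% and 26.8% of all identifiers had one with TMM, DESeq2 size factors and the upper quartile. Intervals wholly above 1 were found for 0 of the 9, where 25.9%, 25.0% and 29.0% of all identifiers had one.

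Ligands, co-receptors and regulators of the same pathways, and further endothelial genes, could be followed by their peaks only, because the files pair no other identifier with a name. In a list of 17 genes of the VEGF and angiopoietin axis, 15 had an entacapone peak and 14 a vehicle peak. Over all protein-coding genes, whatever their input level, the shares were 50.0% and 41.1%. More entacapone peaks were found in 7, fewer in 1 and equal numbers in 7, with 54 entacapone and 41 vehicle peaks in all, a ratio of 1.32. Of all protein-coding genes with a peak in either list, 55.8% had more entacapone peaks. The 5 genes with most entacapone-only peaks are named here, and then the gene with fewer. Vegfa, the main growth factor for endothelium, had 5 entacapone peaks and 0 vehicle peaks. Nrp1, a VEGF co-receptor, had 3 and 1, and Nrp2, its relative, had 6 and 5. Ptprb, a phosphatase that acts on Tie2, had 4 and 2, and Vegfc, a lymphatic growth factor, had 3 and 1. Aplnr, the gene with fewer, had 5 and 7.

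In a list of 24 other endothelial genes, 21 had an entacapone peak and 18 a vehicle peak, with 66 and 53 peaks in all, a ratio of 1.25. More entacapone peaks were found in 12, fewer in 4 and equal numbers in 5, beside the 55.8% with more among all protein-coding genes with a peak. Of the 5 genes with most entacapone-only peaks, Fli1, an ETS transcription factor, had 9 and 7. Thbd, which encodes thrombomodulin, had 7 and 3, and Acvrl1, the receptor ALK1, had 2 and 1. Cd34, a sialomucin, and Plvap, which builds the diaphragms of endothelial openings, each had 2 and 0. The genes with fewer entacapone peaks were Mmrn2 (5 and 7), Robo4 (2 and 3), Sox17 (2 and 3) and Ets1 (2 and 3). The median difference, entacapone minus vehicle peaks, was 0 in the first list and 0.5 in the second, genes without a peak included. It was 1 over all protein-coding genes with a peak and 2 in the 9 genes. Because the list medians include genes without a peak, they are not comparable with the median over all genes. Both lists had ratios of peaks below the 1.39 of the whole peak lists, whereas the 9 genes, picked on their peaks, had a ratio of 4.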

How the data were processed

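Input and m6A immunoprecipitate libraries of poly(A) RNA from fat of entacapone- and vehicle-treated mice were used, 1 library per group, and each was assigned by its title. Per the submitters' processing notes, TopHat2 2.1.1, MACS2 and mm10 were used. Which tool counted reads, on which annotation release, and the peak threshold were not stated in the labels or file headers. The authors deposited raw read counts per Ensembl identifier for each input. They also deposited a peak list per immunoprecipitate with an unlabelled number, read here as a linear fold (ratio of immunoprecipitate over input). It never falls below 1, which does not settle whether it is a linear or a log value.

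Counts were scaled to the library total. Log2 ratios used a prior of 0.5 counts and exact conditional 95% intervals, and levels used exact Poisson intervals, all for counting error only. An identifier was tested when its mean over both inputs reached 1 CPM, and the interval code was tested on simulated data. An overlap of at least 1 bp counted as shared. Tools were Python 3.11.15, scipy 1.17.1, R 4.3.3, edgeR 4.0.16 and DESeq2 1.42.0, the last 2 for scaling factors alone. Neither the count files nor RefSeq pair identifiers with symbols, so the 9 pairs come from the definition of the gene set and other genes are described by peaks alone. RefSeq strands were available for 6 of the 9 genes.

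Genes, lists and alternatives were chosen with earlier results of these data known. All 9 genes are named. From the 2 vascular lists the 5 genes with most entacapone-only peaks are named, ties by symbol. Those with fewer entacapone than vehicle peaks are named as well. The planned naming by input ratio could not be done.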

Additional observations from a re-analysis of the deposited data

How the results depend on the processing

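No gene passed the 1.5-fold call in either direction under any scaling or with a 99% interval. With the library total and an interval that only excludes no change, 6 were lower and 1 was higher, where 20.0% and 37.3% of all identifiers were. With TMM the log2 input ratios were Pecam1 -0.30, Cdh5 -0.56, Kdr -0.48, Flt1 -0.056, Tie1 -0.45, Vwf 0.047 and Cldn5 -0.41. With DESeq2 size factors they were Pecam1 -0.31, Cdh5 -0.57, Kdr -0.49, Flt1 -0.066, Tek -0.14, Tie1 -0.46, Vwf 0.037 and Cldn5 -0.42, and with the upper quartile Pecam1 -0.28 and Cdh5 -0.54. An interval wholly above 1 was found for 0 genes with each of these scalings (25.9%, 25.0% and 29.0% of all identifiers). One wholly below 1 was found for 7 genes with each (29.8%, 30.9% and 26.8%). The scalings were added for both counts after seeing the data. With folds of at least 2, the genes with a vehicle peak numbered 2. With folds of at least 4, there were 6 entacapone-only and 1 vehicle-only peaks. Shared peaks included, 4 genes then had an entacapone peak and 2 a vehicle peak. With the entacapone list cut by rank to the length of the vehicle list, there were 13 entacapone-only and 6 vehicle-only peaks. The stricter lists hold fewer peaks by construction, and a peak counts as found in 1 list alone once its partner is dropped. These peak counts also restate the pattern for which the genes were picked. Requiring an overlap of 50% of the shorter peak, allowing a gap of 200 bp or counting any overlap with the gene span left the counts of 24 and 3 as they were.

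No paired analysis was possible because each group has 1 library. Without replicates the spread between animals is unknown, and without identifier names the relation of peaks to input is described for 9 genes alone. A peak missing from a list does not show that the transcript lacks m6A.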

Other observations

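Other cell types of the tissue were followed by their peaks. Over all protein-coding genes, whatever their input level, 50.0% had an entacapone peak and 41.1% a vehicle peak. Adipocyte genes had 19 entacapone and 10 vehicle peaks, with a peak in 7 and 5 of 11 genes. Lymphocyte genes had 23 and 10 peaks, in 8 and 5 of 9 genes, and skeletal muscle genes 23 and 9, in 4 and 4 of 7. Macrophage genes had 15 and 9 peaks, in 4 and 4 of 8 genes, and fibroblast genes 10 and 6, in 6 and 3 of 8. Mural cell genes had 34 entacapone and 32 vehicle peaks, and lymphatic endothelial genes had 12 and 14, where the whole lists had a ratio of 1.39. Of 5 platelet and megakaryocyte genes, whose cells also make Vwf and Pecam1, 1 had peaks, 2 with entacapone and 0 with vehicle, and 3 erythroid genes had 2 and 1. Input levels of these markers are not known here, so their part in the input values of the 9 genes was not tested.

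Of 11464 protein-coding genes with a peak, 212 (1.85%) had at least 3 entacapone peaks and 0 vehicle peaks, and Pecam1, Cdh5 and Tek were 3 of them. The genes of this kind with most entacapone peaks were Ttn, the giant muscle protein titin (9), Zfp831 (9), Adamts5, a protease that degrades aggrecan (8), Klhdc7a (7) and Ccdc91 (6). The likeness rests on 1 list per treatment.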
